A study of Mus musculus with 9 samples.

Results

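The genes described here encode the peroxisome proliferator-activated receptors (Ppara, Ppard, Pparg), the retinoid X receptors (Rxra, Rxrb, Rxrg), the liver X receptors (Nr1h2, Nr1h3) and 2 of the retinoic acid receptors (Rara, Rarg). Every probe set that the platform annotation pairs with 1 of these 10 symbols was taken, which gave 15 probe sets for 9 genes, out of 34945 single-gene probe sets for 18193 genes. No probe set of Nr1h2 was found by this rule, so Nr1h2 was not analysed here. The study had 3 arrays for each of 3 groups of NIH-CAR cells, a clonal line of NIH-3T3 mouse fibroblasts made permissive to adenovirus by the receptor CARΔ1, at passage 12. In the A/B-deleted group the cells received an adenovirus for HA-tagged PPARγ lacking its A/B-domain (HA-PPARgCDE) and then 1 µM rosiglitazone, an agonist of PPARγ. In the full-length group they received an adenovirus for HA-tagged PPARγ2 and then the same agonist, and in the empty-vector group an adenovirus with no insert (AdEmpty) and then the vehicle DMSO. All cells were exposed to virus for 2 h. Receptor and agonist changed together against empty vector, and no group analysed here had the agonist alone. All cells came from 1 clone, and nothing states whether the replicates were separate cultures beyond the mention of separate experiments, so p-values measure the spread between these arrays.

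PPARs, LXRs and RARs are ligand-activated transcription factors that bind DNA as heterodimers with an RXR. PPARs respond to fatty acids and their derivatives and switch on genes of lipid uptake, storage and oxidation, LXRs respond to oxysterols and RARs to retinoic acid. PPARγ directs fibroblasts towards the adipocyte fate, whereas retinoic acid signalling through RARs is known to oppose early adipogenesis. Ahead of its DNA-binding domain the receptor has an N-terminal A/B-domain, whose activation function does not need ligand. The series addresses whether the role of this region in activation differs from gene to gene.

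All levels are log2 values made by the authors with RMA. Probe sets differ in brightness, so the receptor genes were not ranked by level. Marker levels, and levels set beside the array median, are given only as a rough guide. Where a gene had several probe sets, the one brightest on average represented it. A difference was called where its limma p, adjusted by Benjamini and Hochberg's method across the 18193 genes, was below 0.05. The group means of 10 fibroblast markers, among them Col1a1, Vim and Fn1, ran from 10.50 to 14.16, and 0 of 10 were called in any comparison by limma. At an unadjusted p under 0.05 there were also 0. Group means of the other lists reached well above the array medians too. They ran from 5.99 to 9.94 for leukocyte, 4.94 to 9.71 for muscle and 5.49 to 8.49 for epithelial and endothelial markers. Of the 6 measured adipocyte markers, Adipoq (5.49, 5.68 and 5.46 in the A/B-deleted, full-length and empty-vector groups) and Lep (5.15, 4.94 and 5.15) lay below the lowest array median of 6.68. Retn (7.05, 7.24 and 7.13) and Cebpa (7.26, 7.20 and 7.23) lay above the highest array median of 6.90 in every group mean. Slc2a4 (6.69, 6.82 and 6.87) lay between the lowest and the highest array median. Cidec (5.70, 7.66 and 5.15) lay above the highest with the full-length receptor, where it was called. The 3 arrays numbered 3 stood apart in their 18S ribosomal RNA control signal, at 7.59 to 8.67 against 10.51 to 12.44 on the other 6, and results are therefore also given without them.

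Pparg rose in both receptor groups. Rarg fell with the full-length receptor and, where arrays of equal number were paired, with the A/B-deleted receptor, and no difference was called for the other 7 receptor genes. Both receptor groups were set against the same 3 empty-vector arrays, so the 2 comparisons are not independent. Of the 9 genes, 2 were called in the full-length group against empty vector, Pparg and Rarg. There 0.654% of all genes were called (0.5% higher and 0.154% lower). The Pparg probe set also reads the transgene, so its call was fixed in advance by the design in both receptor groups. In the A/B-deleted group against empty vector 1 was called, Pparg, against 0.17% of all genes (0.159% higher and 0.011% lower). When the replicate number was added as a block, since arrays of equal number deviated together in this comparison, 2 were called, Pparg and Rarg. Of all genes 0.912% were then called, with 0.253% called lower. These background counts depended on single arrays: with the A/B-deleted receptor 29 genes were higher, against 19 or 17 without A/B-deleted array 1 or 2 and 19 or 17 without empty-vector array 1 or 2, and 49 without the arrays numbered 3, and the 2 lower became 0 to 4 as single arrays were left out. With the full-length receptor 91 were higher, against 53 or 44 without full-length array 1 or 2 and 49 or 48 without empty-vector array 1 or 2. The 28 lower with the full-length receptor became 18 or 13 without full-length array 1 or 2 and 14 without empty-vector array 2. Between the A/B-deleted and the full-length receptor 0 of 9 were called, as were 0 of all genes (0.0%, limma). At an unadjusted p under 0.05 the last comparison also gave 0 of the 9 genes, against 277 of all genes (1.52%).

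Pparg, the gene of the introduced receptor, checks which arrays received a receptor, but its levels did not tell the A/B-deleted from the full-length arrays. Its only probe set, 1420715_a_at, also reads the transgene. The A/B-deleted arrays read 10.74, 12.01 and 11.26, the full-length arrays 10.70, 12.22 and 10.84, and the empty-vector arrays 7.01, 6.99 and 7.17. Every receptor array thus lay above every empty-vector array, and the array numbered 2 was the highest in both receptor groups. The difference from empty vector was 19.5-fold with the A/B-deleted receptor (95% interval 10.3 to 36.8, limma adjusted p = 0.00228) and 18.3-fold with the full-length receptor (95% interval 9.69 to 34.7, limma adjusted p = 0.00191). Between A/B-deleted and full-length receptor the ratio was 1.06, with a 95% interval from 0.562 to 2.01, so a difference in Pparg signal within that range was not detectable. Without the 3 arrays numbered 3 the log2 differences from empty vector were 4.38 with the A/B-deleted and 4.46 with the full-length receptor (limma adjusted p = 0.0365 and 0.0171). These are whole cultures, in which fewer transduced cells and less transcript per cell cannot be told apart. Cxadr, which encodes the mouse virus receptor, averaged 6.51 ± 0.09 with the A/B-deleted receptor, 6.41 ± 0.08 with the full-length receptor and 6.38 ± 0.17 with empty vector (SD, n = 3 each). None of its differences was called by limma (adjusted p = 1.00 in each comparison).

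**Figure D1:**
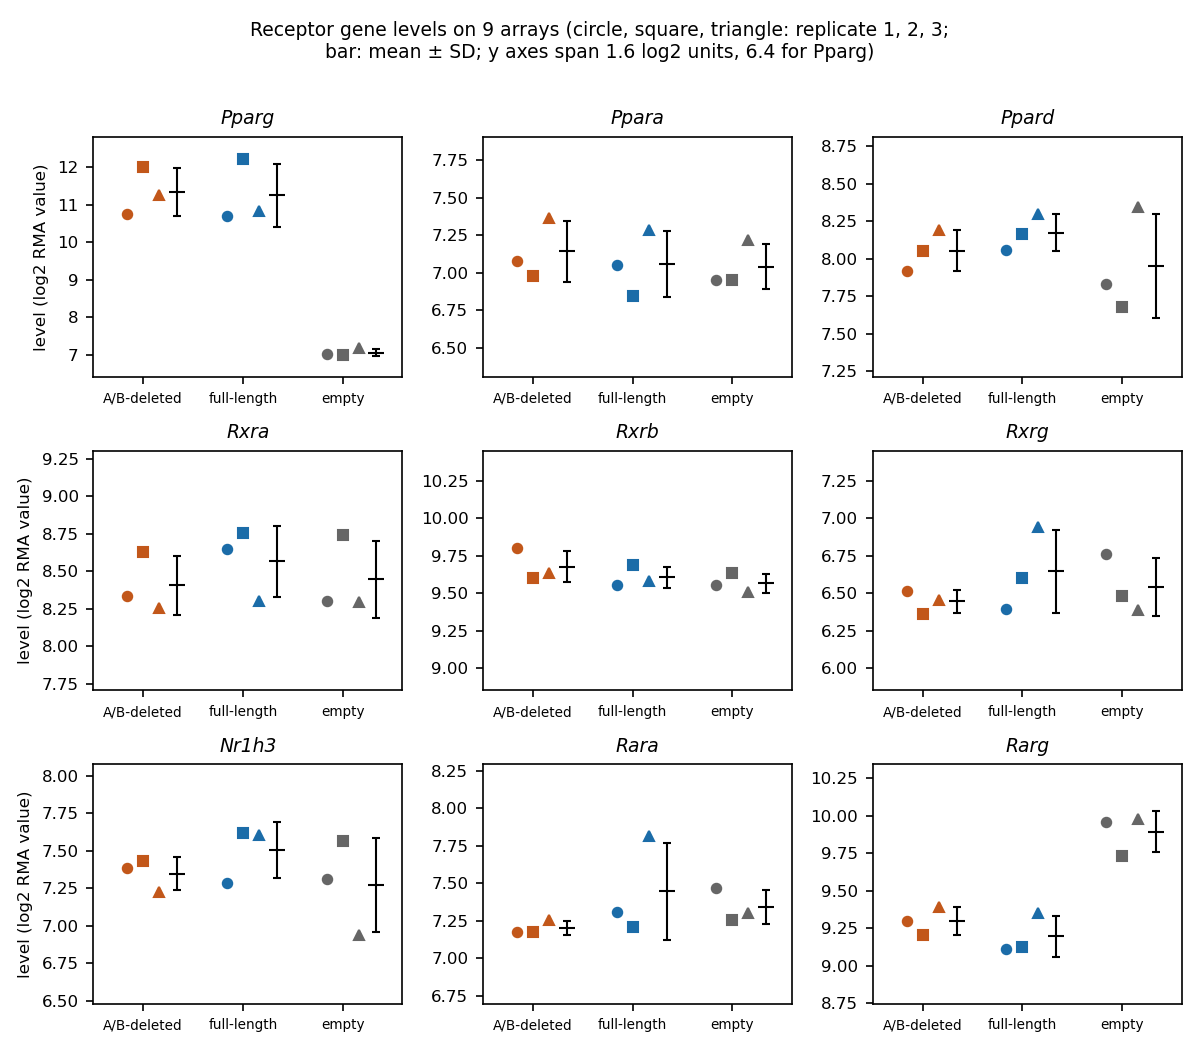
Levels of the 9 receptor genes on a log2 scale (y axis) by group (x axis), 1 point per array, with the mean ± SD of the 3 arrays beside the points. Pparg is high in both receptor groups and Rarg is low in both, while the groups of the other 7 genes overlap.

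Rarg encodes RARγ, the retinoic acid receptor best known from skin and cartilage, and was the 1 gene of the 9 called lower. Its probe set 1419415_a_at read 9.30, 9.20 and 9.39 on the A/B-deleted arrays, 9.11, 9.12 and 9.35 on the full-length arrays, and 9.96, 9.73 and 9.98 on the empty-vector arrays. All 6 receptor arrays lay below all 3 empty-vector arrays, an arrangement found in 2.05% of all genes. With the full-length receptor Rarg fell to 9.20 ± 0.14, against 9.89 ± 0.14 with empty vector (SD, n = 3 each). The difference was -0.70 (SE 0.12, limma adjusted p = 0.0398), which is 1.62-fold lower with a 95% interval from 1.34 to 1.96. With the A/B-deleted receptor it averaged 9.30 ± 0.09 (SD, n = 3), a difference from empty vector of -0.60 (SE 0.12), or 1.51-fold lower with a 95% interval from 1.25 to 1.83. This difference was not called without a block (limma adjusted p = 0.207) and was called with the replicate number as a block (limma adjusted p = 0.0291).

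Between arrays of equal number the Rarg difference was -0.66, -0.53 and -0.59 for A/B-deleted minus empty vector and -0.85, -0.61 and -0.63 for full-length minus empty vector. All 6 values were below 0, which follows from every receptor array lying below every empty-vector array and adds nothing to it. Between A/B-deleted and full-length receptor Rarg differed by 0.10 (95% interval -0.17 to 0.37, limma adjusted p = 1.00), so a ratio beyond 1.30 either way lay outside the interval.

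The other Rarg probe set, 1419416_a_at, read 8.12, 7.86 and 7.89 on the A/B-deleted arrays, 7.71, 7.75 and 8.60 on the full-length arrays, and 8.86, 8.32 and 8.67 on the empty-vector arrays. Here full-length array 3 lay within the range of the empty-vector arrays, whereas the A/B-deleted arrays all lay below it. The differences from empty vector, -0.66 (SE 0.24) with the A/B-deleted and -0.59 (SE 0.24) with the full-length receptor, were of the size seen with the kept probe set. In the fit over all 34945 probe sets neither was called (limma adjusted p = 1.00 and 0.724).

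The call of Rarg with the full-length receptor was close to the threshold. It was lost when any array but full-length replicate 3 was left out, with differences from -0.77 to -0.65 and limma adjusted p up to 0.204, and without the 3 arrays numbered 3 (-0.73, limma adjusted p = 0.059). It was also lost with every probe set as a row (limma adjusted p = 0.0518), after median subtraction (0.0539), with the 6 compared arrays alone (0.155) and with the probe sets averaged (0.222). For the A/B-deleted receptor the difference without those 3 arrays was -0.60 (limma adjusted p = 0.2). The full-length call was kept with the replicate block (limma adjusted p = 0.0075), although the numbers were not taken as pairs in that comparison.

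**Figure D2:**
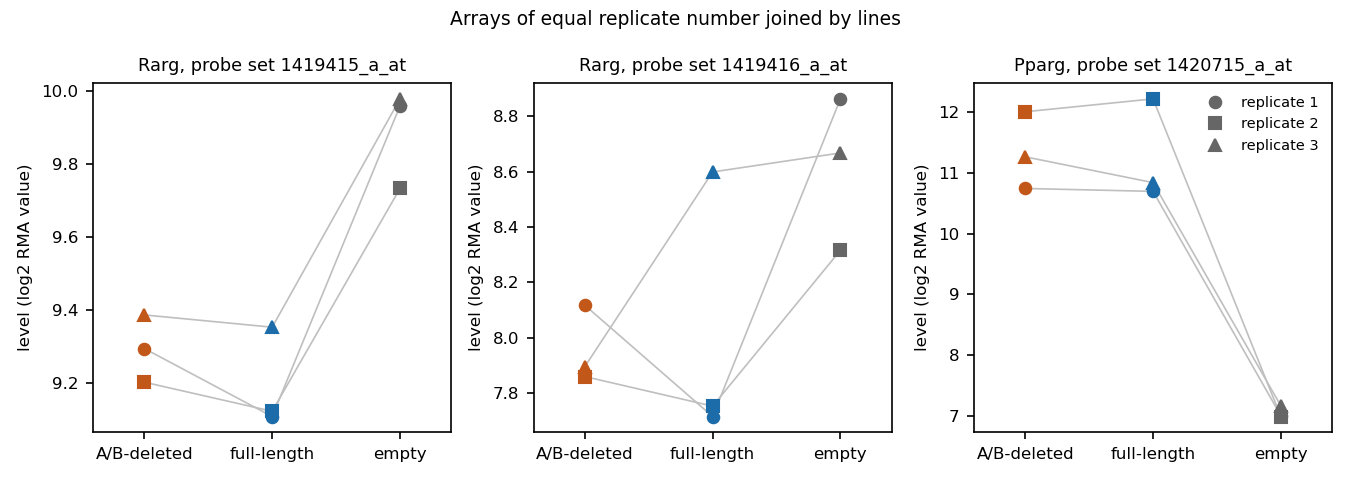
Levels (y axis, log2) of both Rarg probe sets and of the Pparg probe set by group (x axis), with arrays of equal replicate number joined. Rarg 1419415_a_at separates all 6 receptor arrays from the 3 empty-vector arrays, and in 1419416_a_at full-length replicate 3, at 8.60, does not separate.

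Because Rarg is the endogenous gene that was called, the sequence ahead of its upstream start in RefSeq is shown, chr15:102257473-102257772 of GRCm38.p6 on the minus strand, from 250 bases before to 50 bases after the start. Capitals mark the reverse complement of AGGTCA, the core hexamer that the nuclear receptors of this group recognise.
Rarg: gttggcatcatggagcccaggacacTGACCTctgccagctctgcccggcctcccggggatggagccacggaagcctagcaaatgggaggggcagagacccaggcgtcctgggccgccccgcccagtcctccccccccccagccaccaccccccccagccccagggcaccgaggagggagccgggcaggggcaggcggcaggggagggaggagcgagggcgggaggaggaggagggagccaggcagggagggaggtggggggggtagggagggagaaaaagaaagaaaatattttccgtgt

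The hexamer begins 225 bases ahead of that start, and the window of the other Rarg start held none. Over the 20 RefSeq windows of the 10 receptor genes, some of which overlap, 6 held the hexamer on either strand, and they belonged to 5 genes. Of all 32851 windows of this length 16.3% held it. The direct repeats of the hexamer spaced by 1 base (AGGTCANAGGTCA), the type that PPAR and RXR dimers bind, by 4 bases (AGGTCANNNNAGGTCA), bound by LXR and RXR, or by 5 bases (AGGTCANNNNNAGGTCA), bound by RAR and RXR, were in 0 of the 20 windows and in 0.0396%, 0.0152% and 0.00913% of all windows. The longer motifs contain the hexamer. A match is a description of these letters only.

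The other PPAR genes were measured by 5 probe sets. Ppara, the PPAR of hepatic fatty acid oxidation, averaged 7.14 ± 0.20 with the A/B-deleted receptor, 7.06 ± 0.22 with the full-length receptor and 7.04 ± 0.15 with empty vector (SD, n = 3 each). The arrays of all groups overlapped, and the differences from empty vector were 0.10 (95% interval -0.25 to 0.45) and 0.02 (-0.33 to 0.37). Its other probe sets, 1439675_at and 1457721_at, averaged 5.53 to 5.98, below the lowest array median, and no detection calls were given for them. Ppard, the widely expressed PPAR, averaged 8.05 ± 0.14, 8.17 ± 0.12 and 7.95 ± 0.35 in the same order of groups (SD, n = 3 each). Its empty-vector array 3, at 8.34, lay above all receptor arrays, while the other empty-vector arrays, at 7.83 and 7.68, lay below them. The Ppard differences from empty vector were 0.10 (95% interval -0.29 to 0.49) with the A/B-deleted and 0.22 (-0.17 to 0.61) with the full-length receptor. On its other probe set, 1425703_at, they were -0.17 (95% interval -0.65 to 0.31) and 0.10 (-0.38 to 0.58).

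The RXR genes encode the shared dimer partners. Rxrb was the most tightly measured of the 9 genes, at 9.68 ± 0.11 with the A/B-deleted receptor, 9.61 ± 0.07 with the full-length receptor and 9.57 ± 0.07 with empty vector (SD, n = 3 each). Its difference from empty vector was 0.11 (95% interval -0.12 to 0.35) and 0.04 (-0.20 to 0.28), so a change beyond 1.27-fold in either direction lay outside both intervals. Rxra, the main partner of PPARγ in fat cells, averaged 8.40 ± 0.20, 8.57 ± 0.24 and 8.44 ± 0.26 in the same order of groups, with differences from empty vector of -0.04 (95% interval -0.44 to 0.35) and 0.12 (-0.27 to 0.52). Over its 3 probe sets the difference ran from -0.14 to -0.04 with the A/B-deleted and from -0.02 to 0.12 with the full-length receptor. Rxrg, the RXR of muscle and brain, averaged 6.44 ± 0.08, 6.65 ± 0.28 and 6.54 ± 0.19, below the lowest array median of 6.68 in each group mean.

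Nr1h3 encodes LXRα, a sterol sensor whose gene is known to be activated by PPARγ in macrophages and fat cells. It read 7.38, 7.43 and 7.22 on the A/B-deleted arrays, 7.29, 7.62 and 7.61 on the full-length arrays, and 7.31, 7.56 and 6.94 on the empty-vector arrays. The groups overlapped, and the spread was widest among the empty-vector arrays. The differences from empty vector were 0.08 (95% interval -0.31 to 0.46) and 0.23 (-0.15 to 0.61), which leaves increases of up to 1.37-fold and 1.53-fold within the intervals. Both had a limma adjusted p of 1.00.

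Rara encodes RARα, the broadly expressed retinoic acid receptor. It read 7.18, 7.17 and 7.26 on the A/B-deleted arrays, 7.31, 7.21 and 7.82 on the full-length arrays, and 7.47, 7.25 and 7.30 on the empty-vector arrays. Full-length array 3 was the highest of the 9 and stood apart from the other full-length arrays. The differences from empty vector were -0.14 (95% interval -0.50 to 0.22) and 0.10 (-0.25 to 0.46), and that of A/B-deleted minus full-length was -0.24 (-0.60 to 0.11, limma adjusted p = 1.00).

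Across these 7 genes the differences from empty vector ran from -0.14 to 0.11 with the A/B-deleted receptor and from 0.02 to 0.23 with the full-length receptor, and those between A/B-deleted and full-length from -0.24 to 0.08. All 21 of their 95% intervals included 0, and the outermost bounds amounted to 1.53-fold against empty vector and 1.52-fold between the receptors. These values are of the 1 probe set kept for each gene. Over all 12 probe sets of the 7 genes the differences ran from -0.18 to 0.11, from -0.02 to 0.23 and from -0.27 to 0.08 in the same order of comparisons. Of the 15 probe sets, 3 had no overlap between the A/B-deleted and empty-vector arrays, where 8.57% of all probe sets had none. Between the full-length and empty-vector arrays 2 had none, against 9.34%. These were the Pparg probe set and, of Rarg, both probe sets with the A/B-deleted and 1419415_a_at with the full-length receptor. Between A/B-deleted and full-length arrays 0 of the 15 were without overlap, against 5.91% of all probe sets.

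**Figure D3:**
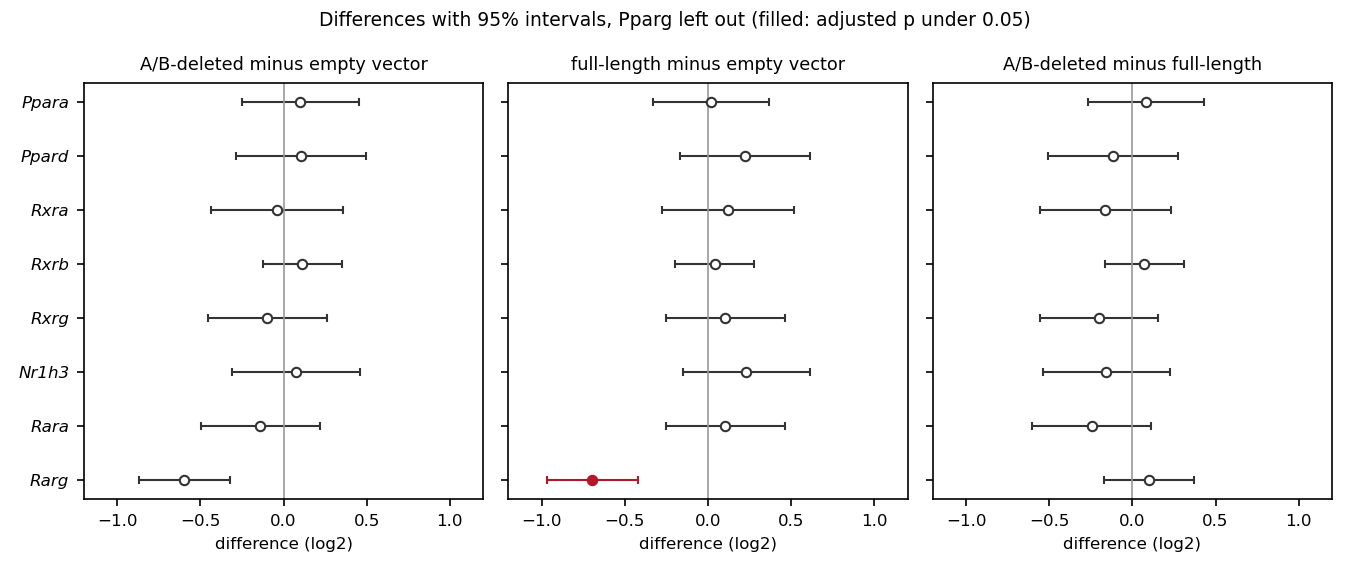
Differences on the log2 scale (x axis) with 95% intervals for 8 receptor genes (y axis) in the 3 comparisons, with Pparg left out because its difference is far larger. The Rarg intervals against empty vector lie wholly below 0, and every other interval crosses 0.

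The genes that these receptors are known to regulate were then counted, from lists drawn up for the report. Of 44 listed PPAR targets 36 were measured, and their median difference from empty vector was 0.48 with the A/B-deleted receptor and 0.65 with the full-length receptor, against -0.03 and 0.00 over all genes. With the replicate block 11 rose and 0 fell in the A/B-deleted group, against 0.66% and 0.253% of all genes. Without it 6 rose and 0 fell there, against 0.159% and 0.011% of all genes. They were Fabp4 (6.54), a fatty acid binding protein, Angptl4 (3.40), a lipase inhibitor, Plin2 (2.87), a lipid droplet coat protein, Lpl (2.54), lipoprotein lipase, Cpt1a (1.81), which loads fatty acids for mitochondrial entry, and Acot2 (1.56), a mitochondrial thioesterase. In the full-length group 9 rose and 0 fell, against 0.5% and 0.154% of all genes. They were these 6 and Cidec (2.51), a lipid droplet protein of fat cells, Ech1 (1.28) and Cpt2 (0.98), both of mitochondrial fatty acid oxidation. The size depended on the probe set for Fabp4 (3.14 to 6.70 with the A/B-deleted and 4.29 to 7.72 with the full-length receptor), Lpl (1.88 to 2.54 and 3.23 to 3.86), Cpt1a (1.10 to 1.81 and 0.82 to 1.73) and Acot2 (0.66 to 1.56 and 0.37 to 1.59). Without the 3 arrays numbered 3, 7 rose with the A/B-deleted and 12 with the full-length receptor, and Cpt2 was not among the 12. Of the 36 targets 0 were called between A/B-deleted and full-length receptor by limma. At an unadjusted p under 0.05 there were 4, against 1.52% of all genes. Cidec (-1.96), Lpl (-1.32, and -1.35 on its other probe set) and Aqp7 (-0.30) were lower with the A/B-deleted receptor, and Vnn1 (0.30) was higher. In these 4 the receptor groups did not overlap, as in 5.17% of all genes. Aqp7 and Vnn1 averaged below the lowest array median.

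Of the 18 LXR targets, all measured, 1 rose in each receptor group, where 0.159% (A/B-deleted) and 0.5% (full-length) of all genes rose. This was Lpcat3, a phospholipid-remodelling acyltransferase, which read 11.26, 11.24 and 11.12 on the A/B-deleted arrays, 11.57, 11.51 and 11.48 on the full-length arrays and 10.38, 10.20 and 9.97 on the empty-vector arrays. Neither receptor group overlapped with empty vector, and the difference from empty vector was 1.03 (SE 0.12, limma adjusted p = 0.0125) with the A/B-deleted and 1.34 (SE 0.12, limma adjusted p = 0.00152) with the full-length receptor. The cholesterol exporter gene Abca1, a standard LXR target, was not called, and its 3 probe sets ran from 0.04 to 0.59 with the A/B-deleted and from -0.38 to 0.46 with the full-length receptor. The list's median was 0.06 with the A/B-deleted and 0.08 with the full-length receptor.

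Of 13 RAR targets 11 were measured, and of 19 genes of retinoid uptake, binding and metabolism 17 were measured, with 0 called by limma in either list without a block. At an unadjusted p under 0.05 there were 2 RAR targets in each receptor group, and 1 and 2 retinoid genes in the A/B-deleted and full-length groups, where 3.79% and 6.19% of all genes passed this threshold. Their medians against empty vector lay between 0.04 and 0.06 in both receptor groups. The largest value in both lists was that of Cyp26b1, which encodes an enzyme that breaks down retinoic acid and is itself a RAR target, and which was singled out after its values were seen. It read 11.43, 11.56 and 10.06 on the A/B-deleted arrays, 11.78, 11.70 and 10.90 on the full-length arrays and 9.44, 9.98 and 8.47 on the empty-vector arrays. All receptor arrays lay above all empty-vector arrays, and the array numbered 3 was the lowest of each group. Between arrays of equal number the difference was 1.98, 1.58 and 1.59 with the A/B-deleted and 2.34, 1.72 and 2.43 with the full-length receptor. For the A/B-deleted receptor the mean difference of 1.72 had a limma adjusted p of 0.577 without and 0.0144 with the replicate block, the 1 call that the block added to these lists. For the full-length receptor the mean difference was 2.16 (SE 0.47, limma adjusted p = 0.107). Without the 3 arrays numbered 3, Cyp26b1 was called with both receptors, at 1.78 with the A/B-deleted and 2.03 with the full-length receptor (limma adjusted p = 0.0199 and 0.00639). Tgm2, a transglutaminase gene induced by retinoic acid, was then called with the full-length receptor (2.18, limma adjusted p = 0.0145), but its 6 probe sets disagreed over all arrays, the lowest being at -0.04 there.

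Among 22 measured genes of other RXR partners and related nuclear receptors 0 were called in any comparison by limma without a block. At an unadjusted p under 0.05 there were also 0. Rarb, the remaining RAR gene, averaged 5.33, 5.31 and 5.33 in the A/B-deleted, full-length and empty-vector groups, below the lowest array median. The lowest difference of that list was that of the vitamin D receptor gene Vdr, at -0.48 (SE 0.56) with the A/B-deleted and -0.61 (SE 0.56) with the full-length receptor. Between arrays of equal number Vdr differed from empty vector by -0.50, -0.61 and -0.33 with the A/B-deleted receptor. With the full-length receptor the differences were -0.52, -0.74 and -0.57, from the same empty-vector arrays. Without regard to number, the Vdr levels of each receptor group overlapped with those of empty vector. With the replicate block the limma adjusted p of Vdr was 0.0777 with the A/B-deleted and 0.0162 with the full-length receptor, where the numbers were not taken as pairs.

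**Figure D4:**
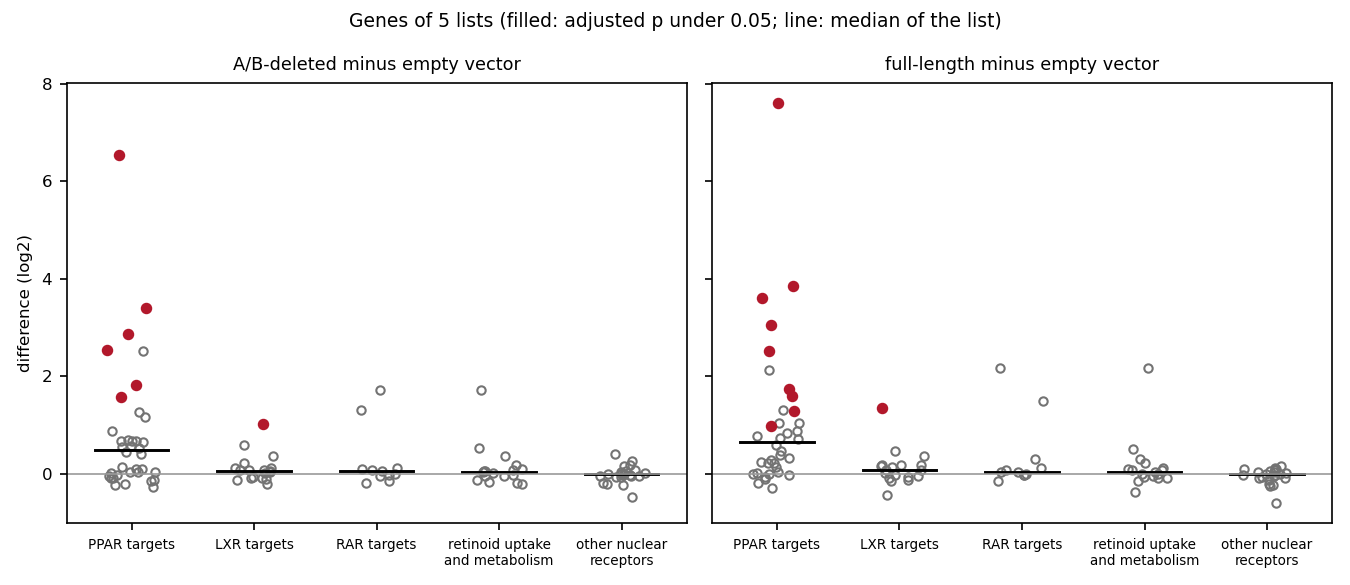
Differences from empty vector on the log2 scale (y axis) for the genes of 5 lists (x axis), 1 point per gene, filled where called, with the median of each list as a line. Called genes are found among the PPAR targets and, with Lpcat3 alone, among the LXR targets.

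The genes most like the called receptor genes were sought among the 9097 genes at or above the median level. Pearson's r was taken over the 9 arrays, which share the same groups and replicate numbers. Likeness is given as a description. Closest to Pparg were Arhgap42 (r = 0.99), Fah (r = 0.98), the last enzyme of tyrosine breakdown, and Etfdh (r = 0.98), which passes electrons from fatty acid oxidation to the respiratory chain. The second probe sets of Arhgap42 and Etfdh differed less from empty vector, by -0.01 and 0.29 with the full-length receptor. Fah differed from empty vector by 2.04 with the A/B-deleted and 2.12 with the full-length receptor (limma adjusted p = 0.0017 and 0.000618). Closest to Rarg were Otud7b (r = 0.99), a deubiquitinase, Ube2d2a (r = 0.97), a ubiquitin-conjugating enzyme, and Ahnak2 (r = 0.96). Their differences from empty vector with the full-length receptor were -0.38, -0.21 and -0.98, and of these Ahnak2 was called (limma adjusted p = 0.0384). With the A/B-deleted receptor the 5 probe sets of Ube2d2a disagreed in sign, from -0.18 to 0.21. The 4 probe sets of Otud7b ran from -0.32 to -0.22 there.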

How the data were processed

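Total RNA of 9 samples was measured on oligonucleotide arrays. The authors deposited log2 values for 45101 probe sets on each array. Per the submitters' processing notes, RMA, affy and R 2.5.0 were used. Base 2 was inferred: on each array at least 99.858% of values, raised from base 2, gave whole multiples of 0.01 (tolerance 0.01 of that unit). The arrays gave no read depth and no detection calls, so their number limits the precision. Array medians ran from 6.68 to 6.90.

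Gene names came from the platform annotation. Probe sets with several symbols (932), none (9160) or a control (64) were left out. Values were used as deposited. One limma 3.58.1 fit in R 4.3.3 (lmFit, contrasts, eBayes, two-sided) over all 9 arrays had 3 group means, 6 residual and 3.374 prior degrees of freedom, and gave standard errors and 95% intervals. A parallel fit took every single-gene probe set as a row. The fit without a block was run on simulated data with independent noise on each array. That setting leaves out the shared deviations of arrays of equal number, so it does not test the fit under them. Python 3.11.15, pandas 2.3.3, numpy 2.4.6 and matplotlib 3.10.9 were used for tables and figures.

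Groups and replicate numbers came from the sample titles. Arrays of equal number were taken as pairs where the 3 correlations of their deviations from the group means, across genes, all exceeded 0.1. These ran from 0.52 to 0.71 between A/B-deleted and empty vector and from 0.30 to 0.53 between A/B-deleted and full-length. Those numbers thus count as pairs. Between full-length and empty vector the correlations were -0.12, 0.63 and 0.26 for numbers 1, 2 and 3, so by this rule the numbers do not count. That outcome rests on the arrays numbered 1. It does not show that the numbers were unrelated there, since both groups paired with the A/B-deleted arrays. The pairing is thus a feature of the data and not of the labels.

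All members, the called genes of each list (at most 6 in each direction), Cxadr and the 3 genes most like each called member were named. Cyp26b1, Tgm2, Abca1, Rarb, Vdr, Ech1, Cpt2, Aqp7, Vnn1 and the markers printed were picked with their values known. The members, lists and tests were chosen with earlier results of these data known. The 5 marker lists covered fibroblasts, adipocytes, epithelial and endothelial cells, leukocytes and muscle; 1 marker, Cidec of the adipocyte list, was called, with the full-length receptor.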

Additional observations from a re-analysis of the deposited data

How the results depend on the processing

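In all, 18 alternatives were run for each comparison. Pparg was called higher against empty vector under every one, by 3.95 to 4.58 with the A/B-deleted and 3.71 to 4.47 with the full-length receptor. The 7 receptor genes other than Pparg and Rarg gave 378 values under these alternatives, and 0 were called by limma (lowest adjusted p 0.317). The count of receptor genes called lower with the full-length receptor, 1 (Rarg), was 0 with every probe set as a row of its own, with only the 6 compared arrays, with probe sets averaged per gene, after median subtraction and without the 3 arrays numbered 3, and ran from 0 to 1 as single arrays were left out. Rarg stayed between -0.77 and -0.64, with a limma adjusted p from 0.0075 to 0.222. With the A/B-deleted receptor the count was 0, and 1 with the replicate block, the only alternative that called Rarg there, and Rarg stayed between -0.67 and -0.55. As single arrays were left out, all genes called ran from 17 to 30 higher and 0 to 4 lower with the A/B-deleted receptor, and from 44 to 88 higher and 13 to 26 lower with the full-length receptor. The replicate block raised all calls from 31 to 166 with the A/B-deleted receptor, from 119 to 661 with the full-length receptor and left 0 between the receptors. For the full-length receptor, where the numbers were not taken as pairs, it raised the called PPAR targets from 9 to 18 and added Cyp26b1 and, lower, Vdr (limma adjusted p = 0.00246 and 0.0162). Leaving out the 3 arrays numbered 3 was applied to the gene lists after seeing the data. The cause of these changes was not tested.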
